A study of Mus musculus with 6 samples.

Results

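The genes described here encode the proteasome, the protease that degrades ubiquitin-tagged proteins. Members were all rows of the count table whose symbol is Psm followed by a letter from a to g and a number, leaving out the immunoproteasome genes Psmb8, Psmb9 and Psmb10. The rule used no measured value and gave 45 of 54429 genes. Of these, 14 encode the core particle, 17 the regulatory particle, 12 activators, an inhibitor or assembly chaperones, and 2 subunits are known from testis and thymus. A filter on low counts kept 43 of the 45 members, among 16065 genes kept in all.

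Expression was measured by ribodepleted RNA-seq of primary aortic endothelial cells (EC) from adult wild-type C57BL/6 mice, in which Meis1, a homeobox transcription factor, was overexpressed to ask whether it moves EC towards a hemogenic program. Both groups were transduced. The 3 Meis1-OE libraries came from EC given the Meis1 vector and the 3 YFP-CTRL libraries from EC given the YFP control vector. In both, 100000 commercially obtained cells per well were exposed to vector for 48 h, YFP+CD31+VEC+ cells were sorted at 72 h and grown again to confluency, and RNA of 300000 cells (300 to 400 ng) was sequenced. The cells were thus adult, cultured and selected for endothelial surface markers, and the study describes the 3 transductions of each condition as independent. Each library has a letter, A, B or C, in the count table, and a letter shared by the groups is not stated to mean a shared batch. Values of the libraries of a group are given in that order throughout.

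Total counts ran from 34176592 to 47956569 per library. Meis1 itself was at 2961 to 3477 CPM (counts relative to library size, scaled with edgeR's TMM factors) in the Meis1-OE and 1.15 to 1.87 CPM in the YFP-CTRL libraries, with vector and endogenous reads not told apart. The endothelial markers Pecam1, Cdh5, Kdr, Tek, Tie1, Eng and Erg summed to 3039, 3449 and 3813 CPM in Meis1-OE EC and to 4242, 5767 and 4239 CPM in YFP-CTRL EC, without overlap. Of these Tek was called lower (log2 fold change -0.78, edgeR adjusted p = 0.0351), and Kdr (-1.23, adjusted p = 0.0504) and Cdh5 (-0.70, adjusted p = 0.0535) did not pass. Pecam1 (-0.11) was not called, nor were Tie1 (0.07), Eng (0.11) and Erg (0.10), whose log2 fold changes were positive. The lower sum thus did not hold for every marker of the list. Of 8 macrophage markers, C1qa, C1qb, Tyrobp and Adgre1 had no count in any library, and the list summed to 0.343 to 1.48 CPM. The 8 fibroblast and smooth muscle markers summed to 15.7 to 17.8 CPM in the Meis1-OE and 34.9 to 54.2 CPM in the YFP-CTRL libraries, with Pdgfra at 11.7 to 49.1 CPM and Acta2 at 0.206 to 19.9 CPM over all libraries. Log2 fold changes were -1.47 for Pdgfra, -1.96 for Acta2 and 0.55 for Pdgfrb, none of them called by edgeR. The part of these markers in the results was not tested. The YFP-CTRL libraries differed among themselves in S and G2/M phase genes, rising from A to C. The mean log2(CPM + 1) of 15 S and G2/M phase genes was 6.34, 6.32 and 6.37 in Meis1-OE EC, and 4.001, 5.07 and 6.30 in YFP-CTRL EC, so that control C was at the level of the Meis1-OE libraries. Named genes whose call changes without that library are also given without it.

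As background, the proteasome is built from a barrel-shaped core particle and a regulatory particle that caps it. The core stacks rings of alpha subunits, which form the gate, around rings of beta subunits, of which Psmb5, Psmb6 and Psmb7 encode the chymotrypsin-like, caspase-like and trypsin-like peptidases. The base of the regulatory particle holds the ATPases encoded by Psmc genes, which unfold substrates, and the lid holds the deubiquitinase Psmd14. Transcription of proteasome genes can be raised in concert by Nfe2l1, a transcription factor that binds antioxidant response elements when proteasome activity is short.

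Promoter sequences are shown for 4 members that bracket the measured differences or carry such an element. Each is the 250 bases before a RefSeq transcript start on GRCm38.p6, written 5′ to 3′ on the strand of the gene. Capitals mark CCAAT (or its reverse complement), the box bound by the factor NF-Y, and in Psmb5 the antioxidant response element core TGACNNNGC. The windows are Psma1 at chr7:114276117-114276366 (minus strand), Psmb3 at chr11:97703184-97703433 (plus strand), Psmb5 at chr14:54617996-54618245 (minus strand) and Psmg3 at chr5:139826895-139827144 (minus strand).
Psma1: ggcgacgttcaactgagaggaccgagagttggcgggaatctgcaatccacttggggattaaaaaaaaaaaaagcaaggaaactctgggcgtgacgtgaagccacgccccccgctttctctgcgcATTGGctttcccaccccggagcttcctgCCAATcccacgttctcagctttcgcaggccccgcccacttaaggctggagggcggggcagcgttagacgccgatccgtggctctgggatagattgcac
Psmb3: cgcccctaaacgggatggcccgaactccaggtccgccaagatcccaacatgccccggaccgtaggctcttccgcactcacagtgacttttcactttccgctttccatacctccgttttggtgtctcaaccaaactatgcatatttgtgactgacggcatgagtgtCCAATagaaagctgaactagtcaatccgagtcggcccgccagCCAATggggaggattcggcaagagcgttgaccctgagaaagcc
Psmb5: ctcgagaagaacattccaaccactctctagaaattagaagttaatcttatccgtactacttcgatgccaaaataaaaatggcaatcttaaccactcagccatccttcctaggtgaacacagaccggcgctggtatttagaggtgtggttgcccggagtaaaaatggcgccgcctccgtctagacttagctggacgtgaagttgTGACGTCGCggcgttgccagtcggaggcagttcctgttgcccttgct
Psmg3: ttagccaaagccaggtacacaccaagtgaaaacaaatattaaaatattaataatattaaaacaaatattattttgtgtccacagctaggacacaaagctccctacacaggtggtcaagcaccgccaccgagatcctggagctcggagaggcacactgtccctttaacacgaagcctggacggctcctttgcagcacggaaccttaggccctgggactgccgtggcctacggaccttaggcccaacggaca
Psma1, the member with the highest log2 fold change, and Psmb3, the lowest of the core, each had 2 CCAAT boxes. Psmb5 had its element core from 47 to 39 bases before the start, and Psmg3, the lowest of all, had none of the searched motifs.

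A promoter was found for 37 of the 45 members, in 40 windows, since 3 genes had 2. The antioxidant response element core was present on either strand in 5 of the 40 member windows (12.5%), against 10.2% of all 32851 promoter windows. The 5 genes were Psmb5 and Psmb6 of the core, Psmc6 and Psmd12 of the regulatory particle, and the chaperone gene Psmd9. The hexamer TGACAG, to which Meis proteins can bind, was in 4 windows (10%), those of Psmb4, Psmb11, Psmd5 and Psmd10, against 15.9% of all windows. The same letters can serve both motifs where TGACAG is followed by a matching tail. CCAAT was in 13 windows (32.5%), against 33.8% of all. A match describes letters and not a binding site.

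Core, regulatory and other proteasome genes were first compared as groups, Meis1-OE against YFP-CTRL. By the quasi-likelihood test of edgeR, adjusted by Benjamini-Hochberg over 16065 genes, 0 of 43 members were called higher and 0 lower at an adjusted p of 0.05. In the same test 4.14% of all genes were called higher and 2.73% lower. At an unadjusted p of 0.05, 0 members were higher and 11 lower, where 12.8% of all genes were higher and 13.4% lower. The 11 comprised 2 core genes, 5 regulatory particle genes and 4 of the other genes. The lowest adjusted p of any member was 0.0600, for Psmb3. DESeq2 called 2 members lower and 0 higher, Psmb3 (adjusted p = 0.0155) and the chaperone gene Psmg3 (adjusted p = 0.0137), where it called 6.21% of genes higher and 6.14% lower.

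In size, the differences had a lower median than those of the whole table, which also holds genes with fewer counts. Log2 fold changes of the 43 members ran from -0.75 to 0.42, with a median absolute value of 0.19 against 0.29 over all genes tested. Standard errors ran from 0.10 to 0.22, with a median of 0.12 against 0.21 over all genes tested. The lowest mean level was 4.36 CPM among members and 0.12 CPM among all genes tested. A lower median change can come from smaller errors alone, and this was not tested. The 95% interval lay within a 2-fold change in either direction for 42 of 43 members, Psmg3 being the exception, and within a 1.5-fold change for 28. Among the 16065 genes tested, it lay within a 2-fold change for 9694 and within a 1.5-fold change for 4540. The log2 fold change was positive for 16 members and negative for 27, beside 8185 positive and 7880 negative among all genes tested. The median over members was -0.11, against 0.01 over all genes. It was -0.07 for the core and -0.15 for the regulatory particle. These medians are descriptions, with no test made over the list.

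**Figure D1:**
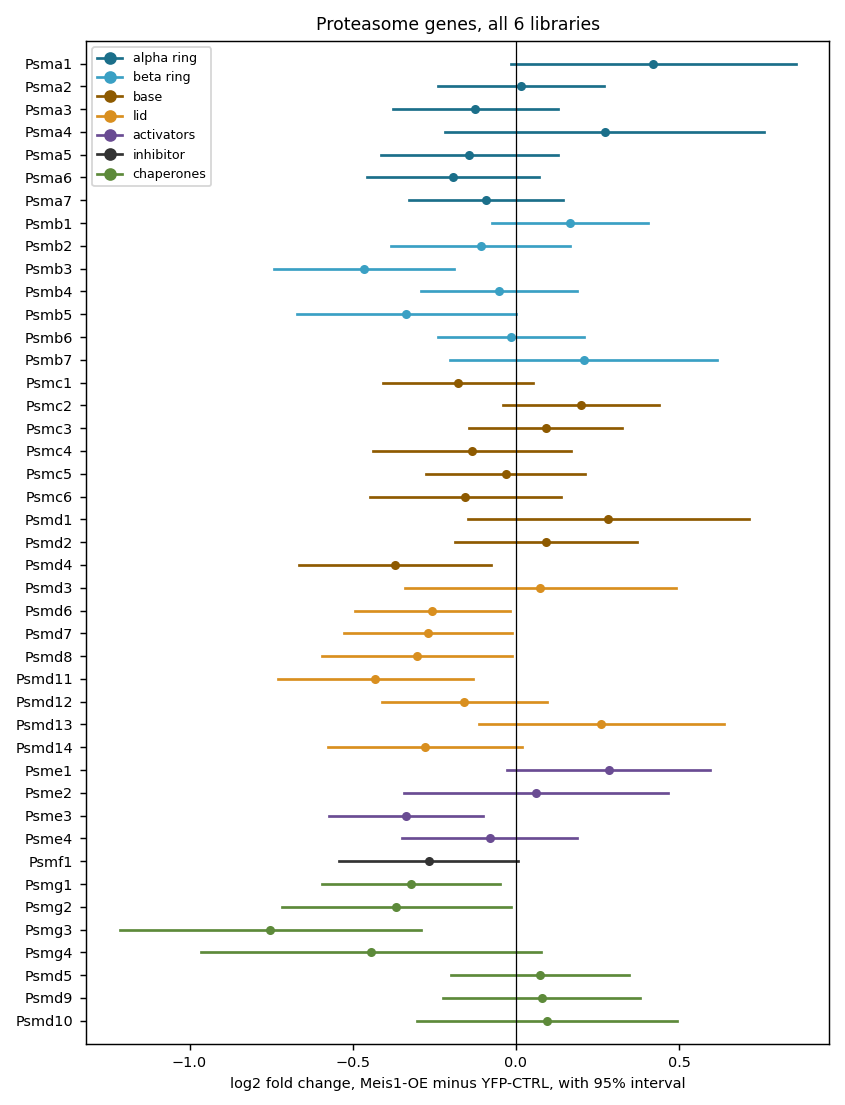
Log2 fold change of each of the 43 tested members, Meis1-OE minus YFP-CTRL, on the x axis, coloured by subcomplex. Lines are 95% intervals derived from edgeR's F statistic (3 libraries per group). The values run from -0.75 (Psmg3) to 0.42 (Psma1), and no member passed an adjusted p of 0.05.

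Scaling bore on the direction of these medians. With library totals in place of TMM factors, the median of all genes moved from 0.01 to 0.15, and the members moved with it, from -0.11 to 0.03. The members' median lay below that of all genes by 0.12 under both scalings. This was fixed in advance, since a change of scaling moves every gene by nearly the same amount. Against that shift, the core median turned from -0.07 to 0.07 and the base from -0.03 to 0.11. The lid (-0.26, then -0.12) and the Psmg chaperone genes (-0.41, then -0.27) stayed negative. With TMM factors, 3 members (Psmb1, Psmc2 and Psme1) had all Meis1-OE libraries above all YFP-CTRL libraries, and 15 had them all below, where 17.2% of all genes were above and 15.9% below in this way. On library totals the split was 13 higher and 5 lower, against 29.2% and 7.92% of all genes. The 5 that were lower without overlap under both scalings were Psmb3, Psmd11, Psme3, Psmg1 and Psmg3.

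In the alpha ring, the gate of the core, no gene of 7 passed the test. The ring's log2 fold changes ran from -0.19 (Psma6) to 0.42 (Psma1), with 3 positive and 4 negative. Psma1 was at 69.9, 73.96 and 80.03 CPM in Meis1-OE EC and at 44.7, 50.4 and 72.01 CPM in YFP-CTRL EC. All Meis1-OE libraries were above controls A and B, and control C lay among them. The means were 74.6 ± 5.09 in Meis1-OE and 55.7 ± 14.4 in YFP-CTRL EC (SD, n = 3 each), with a log2 fold change 0.42, standard error 0.19, edgeR adjusted p = 0.203. Its 95% interval was -0.01 to 0.86. Psma6 was at 56.6, 65.99 and 66.2 CPM in Meis1-OE EC and at 73.04, 74.7 and 68.00 CPM in YFP-CTRL EC. Here the groups did not overlap, although control C and the highest Meis1-OE library were less than 2 CPM apart (log2 fold change -0.19, standard error 0.11, edgeR adjusted p = 0.320). The Psma1 gene is at chr7:114264550-114276116 on GRCm38.p6, and Psma6 at chr12:55384222-55418459.

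In the beta ring, which holds the peptidases, no gene of 7 passed edgeR's test, and Psmb3 was the nearest. Psmb3 is a structural, non-catalytic beta subunit. Psmb3 was at 80.7, 76.8 and 82.5 CPM in Meis1-OE EC and at 125, 103 and 104 CPM in YFP-CTRL EC. The 3 Meis1-OE libraries lay below all 3 controls. The means were 79.96 ± 2.91 in Meis1-OE and 110.5 ± 12.7 in YFP-CTRL EC (SD, n = 3 each), with a log2 fold change -0.47, standard error 0.12, edgeR adjusted p = 0.0600, a difference of -27.6%, and the 95% interval was -0.74 to -0.19. Psmb3, at chr11:97703434-97713500, also had the highest level per length of all members.

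The 3 catalytic genes had log2 fold changes from -0.34 to 0.21, and none passed the test. Psmb5 was at 28.7, 28.1 and 29.00 CPM in Meis1-OE EC and at 41.6, 36.9 and 29.9 CPM in YFP-CTRL EC. Meis1-OE libraries differed by less than 1 CPM among themselves and lay below every control, control C being the nearest (log2 fold change -0.34, standard error 0.14, edgeR adjusted p = 0.190). Psmb6 was at 64.5, 66.8 and 66.6 CPM in Meis1-OE EC and at 65.2, 66.8 and 67.7 CPM in YFP-CTRL EC. The 6 libraries of Psmb6 were nearly level, and its standard error was the lowest of all members (log2 fold change -0.01, standard error 0.10, edgeR adjusted p = 0.944). The interval for Psmb6 was -0.24 to 0.21. Psmb7 was at 70.3, 77.1 and 78.9 CPM in Meis1-OE EC and at 50.4, 65.3 and 80.3 CPM in YFP-CTRL EC. Control A was the lowest and control C the highest of all 6, so the groups overlapped (log2 fold change 0.21, standard error 0.17, edgeR adjusted p = 0.490). The interval for Psmb7 was -0.20 to 0.62. Psmb5 lies at chr14:54614120-54617995, Psmb6 at chr11:70525324-70527858 and Psmb7 at chr2:38588046-38643952.

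**Figure D2:**
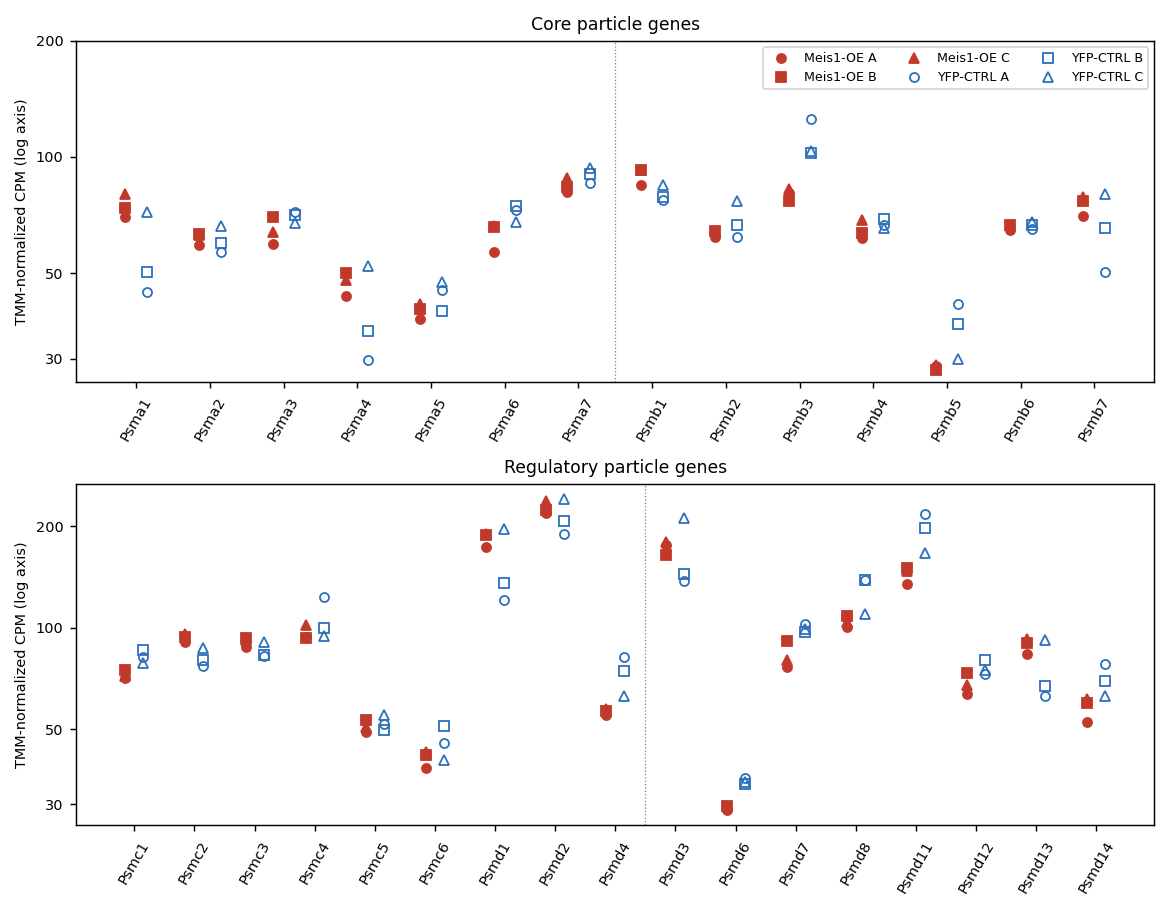
TMM-normalized CPM (log axis) of the 14 core genes (alpha ring, then beta ring after the dotted line) and the 17 regulatory particle genes (base, then lid) in each library, filled red for Meis1-OE and open blue for YFP-CTRL, with the letter as the shape. Meis1-OE libraries lie close together, while control A lies below them and control C among or above them for genes such as Psma1 and Psmd1.

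In the base of the regulatory particle, the part that recognizes and unfolds substrates, no gene of 9 passed the test. The 6 ATPase genes Psmc1 to Psmc6 had log2 fold changes from -0.18 to 0.20, each with a 95% interval within a 1.5-fold change. The extremes of the base were its scaffold gene Psmd1 and the ubiquitin receptor gene Psmd4. Psmd1 was at 173, 188 and 189.8 CPM in Meis1-OE EC and at 121, 136 and 196 CPM in YFP-CTRL EC. Meis1-OE libraries lay above controls A and B and below control C (log2 fold change 0.28, standard error 0.18, edgeR adjusted p = 0.368). Psmd4 was at 55.2, 56.8 and 57.3 CPM in Meis1-OE EC and at 81.7, 74.3 and 62.7 CPM in YFP-CTRL EC. All Meis1-OE libraries lay below all controls, and their range was about 2 CPM (log2 fold change -0.37, standard error 0.13, edgeR adjusted p = 0.122). The means of Psmd4 were 56.4 ± 1.11 in Meis1-OE and 72.9 ± 9.61 in YFP-CTRL EC (SD, n = 3 each). Psmd1 is at chr1:86064619-86139295 and Psmd4 at chr3:95032688-95042614.

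In the lid, which removes ubiquitin from substrates, no gene of 8 passed the adjusted threshold, and 6 of 8 log2 fold changes were negative. Of the 8, 4 were lower at an unadjusted p of 0.05 and 5 were lower without overlap of the libraries, beside 13.4% and 15.9% of all genes. The lowest was Psmd11, a scaffold subunit of the lid. Psmd11 was at 134, 150.2 and 147 CPM in Meis1-OE EC and at 217, 198 and 167 CPM in YFP-CTRL EC. The lowest control was above the highest Meis1-OE library. The means were 144 ± 8.30 in Meis1-OE and 194 ± 25.4 in YFP-CTRL EC (SD, n = 3 each), with a log2 fold change -0.43, standard error 0.13, edgeR adjusted p = 0.0886, and the interval was -0.73 to -0.13. The highest was Psmd13, also a scaffold subunit. Psmd13 was at 83.6, 90.4 and 92.5 CPM in Meis1-OE EC and at 62.9, 67.4 and 91.9 CPM in YFP-CTRL EC. Control C lay between Meis1-OE libraries B and C (log2 fold change 0.26, standard error 0.16, edgeR adjusted p = 0.339). Summed over the lid, the level was 716, 767 and 762 CPM in Meis1-OE EC and 845, 829.7 and 853 CPM in YFP-CTRL EC, so the groups did not overlap with TMM factors. On library totals the lid sums were 790.1, 792 and 775 CPM against 840.0, 759.5 and 808 CPM, and the groups overlapped. Only 1 lid gene, Psmd11, at chr11:80428615-80473248, was lower without overlap on library totals.

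Among activators, the rings or caps that can replace the regulatory particle, no gene of 4 passed the test. Psme1 encodes a subunit of the interferon-responsive ring and Psme3 the nuclear homologue that forms a ring of its own. Psme1 was at 14.1, 15.4 and 16.4 CPM in Meis1-OE EC and at 11.6, 13.6 and 12.5 CPM in YFP-CTRL EC. All Meis1-OE libraries lay above all controls (log2 fold change 0.28, standard error 0.13, edgeR adjusted p = 0.225). Psme3 was at 131, 134 and 134 CPM in Meis1-OE EC and at 176, 173 and 155 CPM in YFP-CTRL EC. All Meis1-OE libraries lay below all controls and within 4 CPM of each other (log2 fold change -0.34, standard error 0.10, edgeR adjusted p = 0.0915). The means of Psme3, at chr11:101316213-101323537, were 133 ± 1.82 in Meis1-OE and 168 ± 11.7 in YFP-CTRL EC (SD, n = 3 each).

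Psme2, the partner of Psme1, is uncertain, since the table also holds Psme2b, a near-identical copy with which reads were divided, and both were looked at after their values were seen. Psme2 was given 8.90, 10.3 and 10.7 CPM in Meis1-OE EC and 11.5, 8.73 and 8.46 CPM in YFP-CTRL EC. Psme2b was given 0.897, 0.668 and 0.787 CPM, and 6.49, 5.95 and 3.55 CPM, in the same groups. Each count was fractional, and the counts of both rows added up to whole numbers within 0.01. Their sum was 9.79, 10.97 and 11.5 CPM in Meis1-OE EC and 17.98, 14.7 and 12.01 CPM in YFP-CTRL EC. The groups overlapped for Psme2 alone and did not overlap for the sum, whose ratio of means was 0.721 (no test was made). In all, 11 of the 43 members had a count more than 0.01 from a whole number in some library. They were Psma2, Psma3, Psma4, Psma5, Psmb3, Psmb5, Psmc2, Psmd1, Psmd11, Psme2 and Psmg3. Apart from Psme2, the rows with which their reads may have been divided were not looked at, so their values share this uncertainty.

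The inhibitor gene Psmf1 did not pass the test. Psmf1 was at 30.7, 31.9 and 31.1 CPM in Meis1-OE EC and at 39.1, 40.2 and 33.4 CPM in YFP-CTRL EC. Its Meis1-OE libraries lay below all controls, control C being the nearest (log2 fold change -0.27, standard error 0.12, edgeR adjusted p = 0.200). The gene is at chr2:151716062-151744199.

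The assembly chaperones build the core (Psmg1 to Psmg4) or the base (Psmd5, Psmd9 and Psmd10), and no gene of 7 passed edgeR's test. All 4 Psmg genes had negative log2 fold changes, from -0.75 to -0.32, and 3 of them were lower at an unadjusted p of 0.05, beside 13.4% of all genes. The 3 base chaperone genes ran from 0.07 to 0.10. Psmg3 was at 7.77, 7.34 and 8.49 CPM in Meis1-OE EC and at 14.96, 15.03 and 9.82 CPM in YFP-CTRL EC. Controls A and B were level, and control C was nearer to the Meis1-OE libraries, which lay below it. The means were 7.86 ± 0.581 in Meis1-OE and 13.3 ± 2.99 in YFP-CTRL EC (SD, n = 3 each), with a log2 fold change -0.75, standard error 0.20, edgeR adjusted p = 0.0654, a difference of -40.7%. Its interval, -1.21 to -0.29, was the only one among members to reach past a 2-fold change. Psmd10 was at 7.46, 9.74 and 9.24 CPM in Meis1-OE EC and at 7.65, 9.39 and 7.70 CPM in YFP-CTRL EC. These libraries overlapped, with A the lowest in both groups (log2 fold change 0.10, standard error 0.17, edgeR adjusted p = 0.763). Psmg3 is at chr5:139823613-139826894 and Psmd10 at chrX:140948425-140956711. As these are bulk samples, fewer cells of a kind and less RNA per cell cannot be told apart for any of these genes.

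The 2 tissue-restricted members were at or near the limit of counting and did not pass the filter of the main edgeR fit. In the edgeR fit without a filter, which held all 45 members, none was called, and DESeq2 gave Psmb11 an adjusted p of 0.398. Psma8, the testis form of an alpha subunit, had 1 count in Meis1-OE library A and 0 in the other 5 libraries. Psmb11, the thymic beta subunit, had 5, 1 and 0 counts in Meis1-OE EC and 8, 7 and 3 counts in YFP-CTRL EC. A count of 0 allows up to 3 counts per library, and this covers counting error only.

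Levels between genes were compared per kb of exon. In YFP-CTRL EC, core genes ran from 22.9 (Psma2) to 144 CPM per kb (Psmb3), with a median of 56.5. In Meis1-OE EC they ran from 22.6 (Psma3) to 104 CPM per kb (Psmb3), with a median of 58.5. The order of genes depends on the exon length used. This length was 2.67 kb for Psma2, 2.85 kb for Psma3 and 0.914 to 1.49 kb for the other alpha ring genes. Before division by length, Psma2 (61.0 CPM) and Psma3 (70.1 CPM) lay above Psma4 (39.1 CPM) and Psma5 (44.2 CPM) in YFP-CTRL EC. Regulatory particle genes ran from 21.0 (Psmc6) to 85.2 (Psmd8) in YFP-CTRL and from 18.9 (Psmc6) to 78.0 (Psmd3) in Meis1-OE EC. Most genes outside the particles lay lower. The chaperones ran from 5.62 (Psmd10) to 24.9 (Psmd5) CPM per kb in YFP-CTRL EC, and Psmf1 was at 9.41 ± 0.912 CPM per kb in YFP-CTRL and 7.82 ± 0.158 in Meis1-OE EC. Psme3 stood above the other activators, at 60.4 ± 4.20 CPM per kb in YFP-CTRL and 47.8 ± 0.653 in Meis1-OE EC. Of the catalytic genes, Psmb5 was the lowest of the beta ring in both groups, at 39.2 ± 6.38 CPM per kb in YFP-CTRL and 31.02 ± 0.489 in Meis1-OE EC, below Psmb7 (56.3 ± 12.9 CPM per kb in YFP-CTRL and 65.02 ± 3.94 in Meis1-OE EC) and Psmb6 (83.4 ± 1.55 CPM per kb in YFP-CTRL and 82.6 ± 1.55 in Meis1-OE EC). Psmb5 and Psmb7 were apart by less than the sum of their SDs in YFP-CTRL EC, so their order there is within the spread.

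**Figure D3:**
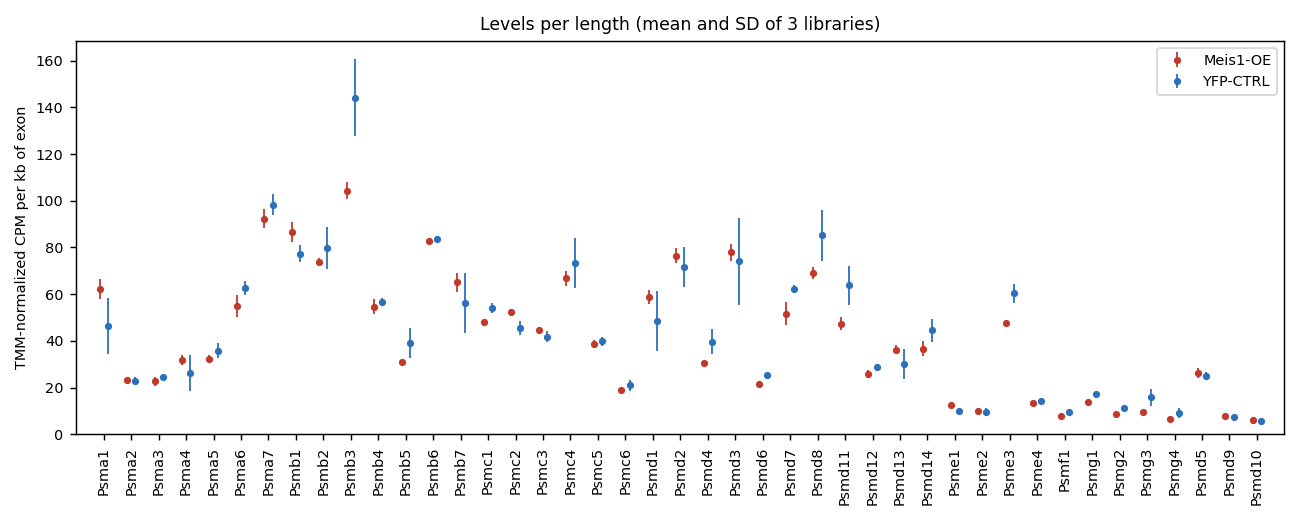
Mean TMM-normalized CPM per kb of exon for the 43 tested members, ordered by subcomplex, with bars of 1 SD over 3 libraries (red, Meis1-OE, and blue, YFP-CTRL). Psmb3 is the highest in both groups (144 and 104 CPM per kb), and the chaperones, Psmf1 and the activators other than Psme3 reach at most 26.2 CPM per kb.

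Summed per library, the core genes were at 860.5, 916 and 934 CPM in Meis1-OE EC and at 895, 908 and 976 CPM in YFP-CTRL EC. The regulatory particle genes summed to 1593, 1686 and 1701 CPM, and to 1699, 1696 and 1797 CPM, in the same groups. Both sums overlapped between the groups on this scale. On library totals, without TMM factors, the core sums were 949.9, 945 and 949.7 CPM in Meis1-OE EC against 890.1, 831 and 925 CPM in YFP-CTRL EC, and the regulatory sums were 1758, 1739.8 and 1730.3 CPM against 1689, 1553 and 1704 CPM. On that scale both sums were higher in all Meis1-OE libraries, so the scaling decided whether the groups overlapped. The ratio of regulatory to core CPM was 1.85, 1.84 and 1.82 in Meis1-OE EC and 1.90, 1.87 and 1.84 in YFP-CTRL EC. Sums over the base were 877, 919 and 939 CPM against 854, 867 and 945 CPM, and those over activators were 240.2, 258 and 259.8 CPM against 305, 286 and 279 CPM. On library totals the base sums were higher in all Meis1-OE libraries and the activator sums overlapped. These sums weigh the most counted genes most, and no test was made on them.

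**Figure D4:**
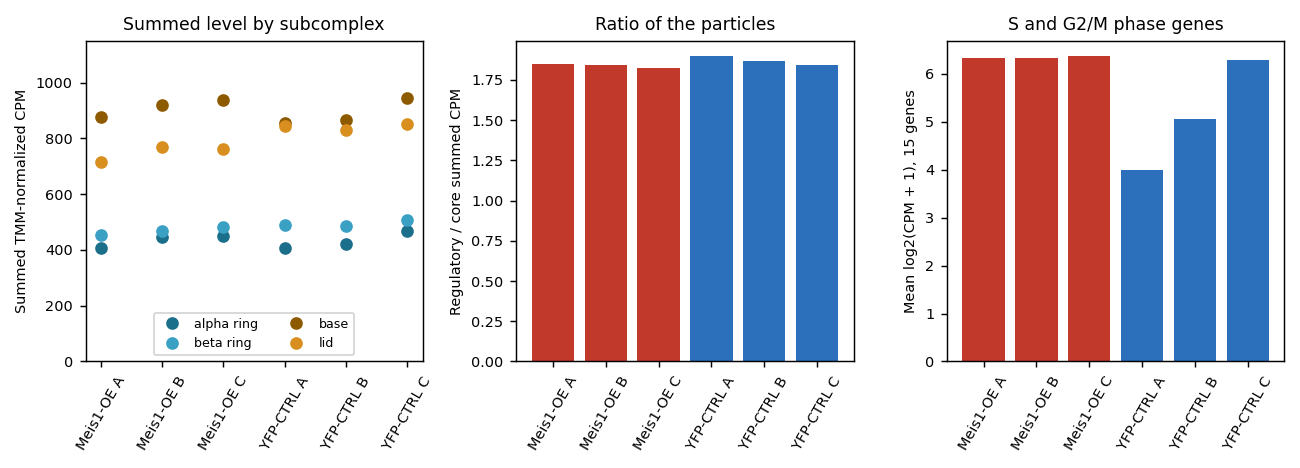
Per library, the summed TMM-normalized CPM of the alpha ring, beta ring, base and lid (left), the ratio of regulatory to core CPM (middle) and the mean log2(CPM + 1) of 15 S and G2/M phase genes (right), with Meis1-OE in red and YFP-CTRL in blue. The lid is at 716 to 767 CPM in Meis1-OE and 829.7 to 853 CPM in YFP-CTRL libraries (the groups overlap on library totals), the ratio stays between 1.82 and 1.90, and the phase score of control C (6.30) is at the Meis1-OE level.

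Controls varied more than Meis1-OE libraries. The ratio of the highest to the lowest library had a median over members of 1.10 in Meis1-OE and 1.22 in YFP-CTRL EC. The largest was 1.31 (Psmd10) in Meis1-OE and 1.76 (Psma4) in YFP-CTRL EC. The SD of log2 CPM was larger in YFP-CTRL EC for 33 of 43 members (76.7%), against 78.8% of all genes, so the members were close to the table as a whole. Control C was nearer than control A to the Meis1-OE mean for 34 of 43 members (79.1%), against 70.4% of all genes. Among the 43 members, 15 were ordered A, B, C from low to high in the controls and 10 from high to low. Of all 16065 genes tested, 4109 were ordered from low to high and 3427 from high to low. Psma4 was at 29.7, 35.3 and 52.2 CPM and Psmd3 at 137, 144 and 212 CPM in YFP-CTRL EC, and these were named after their values were seen.

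Leaving out YFP-CTRL library C changed the calls. With the other 5 libraries, edgeR called 4 members higher (Psma1, Psma4, Psmd1 and Psmd13) and 12 lower at an adjusted p of 0.05. Among all genes 16.5% were then called higher and 15.2% lower, against the 4.14% and 2.73% with all 6 libraries. The 12 lower were 2 core genes (Psmb3 and Psmb5), 5 regulatory particle genes (Psmd4 of the base, and Psmd6, Psmd8, Psmd11 and Psmd14 of the lid) and 5 others (Psme3, Psmf1, Psmg2, Psmg3 and Psmg4). The log2 fold change was then 0.64 (adjusted p = 0.00561) for Psma1, 0.50 (adjusted p = 0.0108) for Psmd1 and 0.43 (adjusted p = 0.0122) for Psmd13, among the genes higher. It was -0.52 (adjusted p = 0.0105) for Psmb3, -0.47 (adjusted p = 0.0105) for Psmb5, -0.48 (adjusted p = 0.00573) for Psmd4 and -0.54 (adjusted p = 0.00513) for Psmd11. For the genes outside the particles it was -0.40 (adjusted p = 0.00915) for Psme3, -0.36 (adjusted p = 0.0222) for Psmf1 and -0.94 (adjusted p = 0.00241) for Psmg3. In each of the other 5 fits that left out a library, 0 members were called. Those fits called only 0.70% to 3.73% of all genes higher and 0.0975% to 2.63% lower. Leaving out control A moved the genes with positive values the other way, to 0.27 for Psma1, 0.14 for Psmd1, 0.15 for Psmd13 and 0.04 for Psmb7. With the S and G2/M phase score of each library as a covariate, which left 3 residual degrees of freedom, 0 members were called either, and Psmb7, Psmd1 and Psmd13 turned from positive to negative. Most of the other named differences shrank in that fit, Psma1 to 0.08, Psmb3 to -0.32, Psmb5 to -0.07, Psmd4 to -0.16, Psmd11 to -0.22, Psmf1 to -0.14 and Psmg3 to -0.40. The score was 6.32 to 6.37 in the Meis1-OE libraries and ran from 4.001 to 6.30 in the controls. That fit therefore leans on control C, and it cannot tell growth state from other features of that library. The part of growth state in the differences was not tested.

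**Figure D5:**
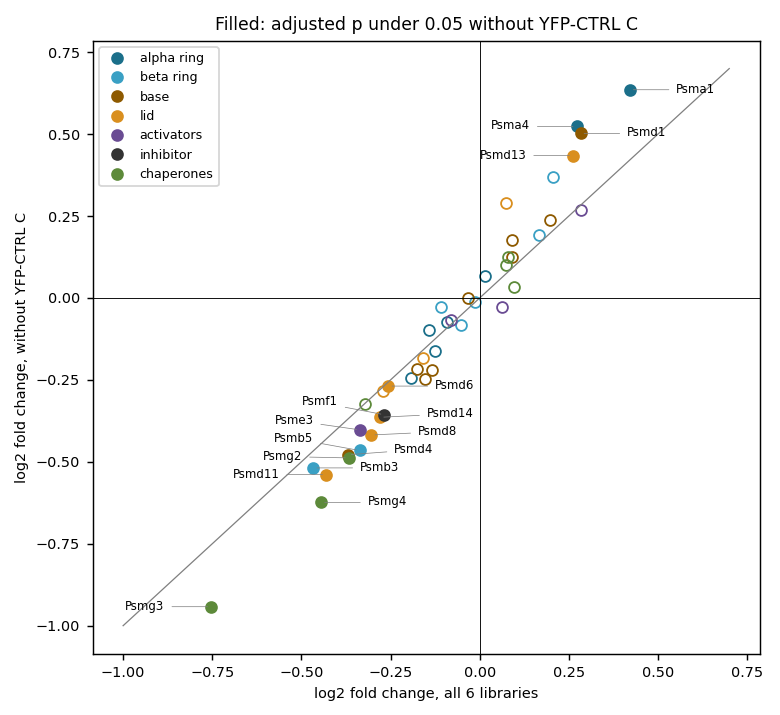
Log2 fold change of the 43 members with all 6 libraries (x axis) and without YFP-CTRL library C (y axis), coloured by subcomplex, with the line of equal values in grey. The 16 filled and named members pass an adjusted p of 0.05 without control C, while none does with all 6 libraries, and Psma1 and Psmg3 mark the ends.

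Genes that work with the proteasome but do not match the symbol rule were compared as a list. It held 28 genes, of which 27 were in the table and tested. They include genes for ubiquitin, its activating enzymes, shuttle receptors, proteasome-bound deubiquitinases, chaperones and regulators. Adrm1 and Sem1 encode regulatory particle subunits, which the particle's counts and sums above leave out. Their log2 fold changes were -0.48 (edgeR adjusted p = 0.108) and -0.24 (edgeR adjusted p = 0.319). Without control C, Adrm1 was called lower by edgeR (-0.63, adjusted p = 0.00308) and Sem1 was not. With all 6 libraries edgeR called none of the 27 in either direction. At an unadjusted p of 0.05, 0 were higher and 6 lower, beside 12.8% and 13.4% of all genes. DESeq2 called 3 lower, beside 6.14% of all genes. Without YFP-CTRL library C edgeR called 8 of the 27 lower and 0 higher, beside 15.2% and 16.5% of all genes. Their median log2 fold change was -0.13 with TMM factors and 0.01 on library totals, so its sign turned with the scaling. Nfe2l1, the transcription factor of proteasome genes, was at 269, 322 and 314 CPM in Meis1-OE EC and 418, 542 and 264 CPM in YFP-CTRL EC. Control C was the lowest of all 6 libraries and control B the highest (log2 fold change -0.44, standard error 0.25, edgeR adjusted p = 0.304). Its log2 fold change was -0.69 (adjusted p = 0.0147) without control C, -0.17 (adjusted p = 0.690) without control B and -0.0377 (adjusted p = 0.959) with the phase score as a covariate. The shuttle receptor gene Rad23b had the lowest adjusted p of the list and was named for it after the values were seen. Rad23b was at 163, 169 and 163 CPM in Meis1-OE EC and at 279.9, 263 and 198 CPM in YFP-CTRL EC. All Meis1-OE libraries were below all controls (log2 fold change -0.58, standard error 0.14, edgeR adjusted p = 0.0580). DESeq2 called it lower (adjusted p = 0.0154), and without control C its edgeR log2 fold change was -0.73 (adjusted p = 0.00160).

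The immunoproteasome genes left out by the rule, which replace the catalytic subunits under interferon, were not called either. Psmb8 and Psmb9 were at 0.391 CPM or less in every library, and Psmb10 was at 6.65, 6.96 and 7.58 CPM in Meis1-OE EC and 6.21, 6.08 and 6.60 CPM in YFP-CTRL EC (log2 fold change 0.17, standard error 0.14, edgeR adjusted p = 0.505).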

How the data were processed

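The authors deposited estimated counts, without normalization, for 54429 genes by symbol, and all 6 columns were used. The labels name mm10; aligner, counting tool and strand use are not given in the sources used here. Rounded counts went into edgeR 4.0.16 (filterByExpr, TMM factors, two-sided quasi-likelihood test) with limma 3.58.1 under R 4.3.3, or into DESeq2 1.42.0. P-values were adjusted over all genes tested by Benjamini-Hochberg, with 0.05 as the threshold. Libraries had no molecular identifiers, so reads are not independent molecules. P-values measure the spread between libraries, and 3 against 3 allow no exact permutation p below 0.1. That spread is between transductions of commercially obtained cells, and whether it covers different animals is not stated. Both tools were tested on simulated data, in which libraries varied less than here and the changes were larger than that of any member. That test does not bear on the calls of members. Named genes were set by rule: members past the threshold, the highest and lowest log2 fold change of each subcomplex, Psmb5, Psmb6, Psmb7, the tissue-restricted and immunoproteasome genes, Nfe2l1 and Meis1. Members and lists were chosen with earlier results of these data known. Positions and promoters came from RefSeq on GRCm38.p6, exon lengths from GENCODE on NCBIM37 by symbol (43 members). Python 3.11.15 and matplotlib 3.10.9 drew the figures.

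As alternatives, scaling used library totals or the size factors of DESeq2, the filter was dropped or set to 10 counts in all libraries, the fit was robust or made with DESeq2, the threshold was 0.01 or 0.1, the letter entered as a replicate block, the phase score entered as a covariate, counts stayed unrounded, or a single library was left out.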

Additional observations from a re-analysis of the deposited data

How the results depend on the processing

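With DESeq2, 1 core gene, 1 of the other proteasome genes and 3 cofactor genes were called lower, beside 6.14% of all genes. At an adjusted p of 0.10 edgeR called 1 core, 1 regulatory particle, 2 other and 3 cofactor genes lower. The share of all genes called at 0.10 was not counted, so these counts cannot be set against the whole table. When each library was left out in turn, the counts ran from 0 to 2 for core genes higher, 0 to 2 for core genes lower, 0 to 2 for regulatory particle genes higher, 0 to 5 for regulatory particle genes lower, 0 to 5 for other genes lower and 0 to 8 for cofactor genes lower, and the upper ends all came from the fit without YFP-CTRL library C. The cause was not tested. The regulatory particle median ran from -0.22 to -0.11 over those fits, was -0.107 with the phase score as a covariate and -0.0134 on library totals, where the core median was 0.0692. With the covariate, the log2 fold change was -0.12 for Psmb7, -0.0623 for Psmd1, -0.0165 for Psmd13 and -0.19 for Psmb9. That of Psmb6 was 0.13 on library totals and ran from -0.0422 to 0.00320 over the fits that left out a library. At an adjusted p of 0.01, with DESeq2's size factors, other filters, a robust fit or counts not rounded, no member was called by edgeR. At 0.05, these other fits called 2.38% to 4.16% of all genes higher and 1.39% to 2.76% lower.

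The libraries were not treated as paired. Deviations from the group mean correlated at 0.26 for letter A, 0.17 for B and 0.08 for C, and Meis1-OE library C correlated best with YFP-CTRL library B (0.25). With the letter as a replicate block, edgeR called 0 members, beside 3.39% of all genes called higher and 1.18% lower. The lowest adjusted p of a member was then 0.101. The medians were -0.07 for the core and -0.15 for the regulatory particle. With 3 libraries per group, the 95% intervals bound the size of a change, given TMM factors, rather than exclude a small one. They do not include the shift that another scaling brings.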
